A study of Mus musculus with 6 samples.

Results

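The nuclear-encoded subunits of the respiratory chain and ATP synthase were followed in the RNA-seq counts of renal tubular cells lacking VHL, with and without a second deletion of Setd2. The members were the rows whose symbol begins with Nduf (letters a, b, c, s or v and a digit), Uqcr, Cox4 to Cox8 (letters a to c) or Atp5. Symbols of pseudogenes that contain -ps and rows with fewer than 10 counts summed over the 6 libraries were left out. Of 46095 rows, 76 were members. Complex I had 35 of them, complex III had 8, complex IV had 15 and complex V (ATP synthase) had 15. Ndufa4 was placed with complex IV, where its product is now assigned, and its paralogue Ndufa4l2 was kept apart. Atp5s and Atp5sl match the symbol rule but are not ATP synthase subunits, so they were also kept apart. At the edge of the count minimum, Ndufa7 entered with 10 counts in all 6 libraries together, while Cox7b2 had 5 and Cox8c had 0.

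The cells were primary tubular epithelial cells (PTECs) freshly isolated from the kidneys of 10-week-old mice in C57 background. In the VHL-KO mice, a Cre recombinase driven by the Cdh16 promoter (Ksp-Cre) acts on VHL fl/fl alleles. In the VHL-KO; Setd2-KO mice, the same Cre acts on VHL fl/fl and Setd2 fl/fl alleles, so that VHL is deleted in both groups and no group with intact VHL was compared here. The Cdh16 promoter is active in only part of the tubule, so a library can also hold cells in which nothing was deleted. Each group had 3 libraries, replicates 1, 2 and 4 for VHL-KO and replicates 2, 3 and 4 for VHL-KO; Setd2-KO. There were 3 mice a group for these libraries, but no label ties a library to a mouse, and the sex of the mice was not given for the libraries. The p-values therefore measure the spread between these libraries. VHL is the ubiquitin ligase subunit that marks hypoxia-inducible factors for degradation, and Setd2 is the histone methyltransferase that trimethylates a lysine of histone H3 along transcribed genes.

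Complex I takes electrons from NADH, complex III passes them from ubiquinol to cytochrome c, and complex IV hands them to oxygen. The proton gradient that these complexes build drives ATP synthesis by complex V. Most of their subunits are encoded in the nucleus and the rest in mitochondrial DNA, and renal tubule cells, above all those of the proximal tubule and the thick ascending limb, are rich in them because salt reabsorption consumes ATP. Hypoxia-inducible factors, which accumulate without VHL, are known to lower respiration, among other ways through NDUFA4L2 and a switch between the COX4 isoforms.

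Library totals lay between 11168552 and 17883466 counts. The library of VHL-KO replicate 4 stood apart from the other 5: its Spearman correlations with them over the 14611 tested genes were between 0.717 and 0.765, whereas the 10 pairs among the others had correlations between 0.937 and 0.986. In that library Setd2, which this genotype should retain, had 132 counts (12.3 CPM), against 1179 and 799 counts (71.5 and 73.9 CPM) in VHL-KO replicates 1 and 2. In the libraries with the label VHL-KO; Setd2-KO, Setd2 had 1499, 1019 and 1429 counts (79.6, 57.4 and 89.6 CPM). In these counts the Setd2 level thus did not follow the labels. VHL-KO replicate 4 was also the lowest of the 6 libraries for 41.6% of all tested genes. The paper reports less SETD2 and less of its histone mark in renal tubules of its mice, by Western blot, immunostaining and RT-qPCR. The counts cover the whole gene, and reads of the deleted exons could not be separated from the rest. The fold changes between groups are therefore given with and without VHL-KO replicate 4, and the second group is called by its label. The marker genes of tubule segments were detected in every library, including Cdh16 (332 to 2257 CPM), and proximal tubule markers summed to between 6541 and 25423 CPM, so that epithelial cells of the label were present. Markers of podocytes summed to between 1437 and 4836 CPM and those of endothelium to between 977 and 3917 CPM, so that the cells were a mixture.

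Counts were normalised to CPM, counts scaled to the same library size, with TMM factors, and values are given in the order VHL-KO replicates 1, 2 and 4, followed by VHL-KO; Setd2-KO replicates 2, 3 and 4. Fold changes are those of the second group relative to VHL-KO, from edgeR's quasi-likelihood test over all 14611 genes that passed the filter on low counts, of which 74 were members. A gene was called at a p-value below 0.05 and a fold change of at least 1.5. Of the 76 members, 18 have at least 1 near-identical gene or pseudogene that could share their reads, among them Atp5c1, Atp5g2, Atp5k, Cox5a, Cox6a1, Ndufs3 and Uqcrb, so that their counts are uncertain. Fewer cells of a type and less RNA per cell cannot be told apart in such bulk samples.

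The start regions of 3 members are shown because Ndufb4 was the single member that passed the unadjusted threshold, Ndufv1 was a complex I core gene whose groups did not overlap, and Cox6a1 had the lowest fold change in complex IV. Each run, from RefSeq's GRCm38.p6 table, ends at the last base before the start of the gene in the GENCODE annotation and is read 5′ to 3′ on the minus strand. Capitals mark GCGCA and GCGC with 1 base of any kind between them, the core of the site bound by NRF1, a known activator of respiratory chain genes, and in Ndufv1 the motif ACGTG of hypoxia-inducible factors, which reads on both strands in the same 6 bases.
Ndufb4 (chr16:37654454-37654618): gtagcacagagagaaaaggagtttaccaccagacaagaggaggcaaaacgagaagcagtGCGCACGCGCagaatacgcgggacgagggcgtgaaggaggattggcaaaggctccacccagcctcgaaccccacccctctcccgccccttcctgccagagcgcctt
Ndufv1 (chr19:4012807-4013005): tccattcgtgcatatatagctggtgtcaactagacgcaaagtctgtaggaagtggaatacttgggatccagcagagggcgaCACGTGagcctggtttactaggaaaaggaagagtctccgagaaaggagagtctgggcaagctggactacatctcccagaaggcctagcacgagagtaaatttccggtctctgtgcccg
Cox6a1 (chr5:115348982-115349208): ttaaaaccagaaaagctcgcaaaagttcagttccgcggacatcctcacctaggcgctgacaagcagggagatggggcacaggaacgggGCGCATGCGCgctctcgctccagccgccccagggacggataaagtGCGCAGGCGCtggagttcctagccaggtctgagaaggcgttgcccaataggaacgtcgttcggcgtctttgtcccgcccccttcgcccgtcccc

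In the 250 bases before the RefSeq start, 62 of the 76 members could be matched by symbol. The NRF1 letters GCGCA and GCGC with 1 base between them, searched on both strands, were found in 10 of the 62 (16.1%), against 1044 of 27025 promoters (3.86%). The letters CCGGAAG of the ETS factor GABPA, another known regulator of these genes, were found in 10 members (16.1%), against 7.05% of all promoters. The hypoxia motif ACGTG was found in 12 members (19.4%), against 16.6% of all promoters. These are matches of letters in a window, and the motifs can overlap one another.

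Over the members as a whole, most mRNAs were lower in the libraries with the label VHL-KO; Setd2-KO, but no member passed the adjusted threshold and 1 passed the unadjusted one. Of the 74 tested members, 66 had a fold change below 0 on the log2 scale, with a median of -0.97 and a range from -1.57 to 0.51, whereas the median of all tested genes was 0.01. Only Ndufb4 was called at an unadjusted p, that is 1 of 74 members, while 7.33% of all tested genes were called in either direction and 4.68% in the lower direction. With edgeR's Benjamini-Hochberg adjustment, 0 members were called and 0.00684% of all genes, which is 1 gene. At an unadjusted p below 0.05 the count was again 1. DESeq2 called 17 members at an unadjusted p, all lower. In either direction it called 6.21% of its 25307 genes, to which edgeR's filter on low counts was not applied. At an adjusted p it called 0 members and 1.52% of the genes to which it gave one. Of the 74 members, 13 had none, Ndufb4 among them. Its 17 calls were Ndufb4, Ndufv1, Ndufv3, Ndufs8, Ndufa3, Ndufa10, Ndufa13, Ndufb2, Ndufb8, Ndufb9, Uqcrq, Uqcr10, Uqcr11, Cox6a1, Cox8a, Atp5d and Atp5g3. Below, a gene is said to pass or to be called by edgeR unless DESeq2 is named.

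The differences between groups followed VHL-KO replicate 4. That library was the highest of the 6 for 60 of the 74 tested members, and the highest for 40% of all tested genes. Without it, the median log2 fold change of the members was -0.13, against 0.04 for all genes tested in that fit, with 56 of 74 members below 0. In the fit without that library, 3 members (Ndufb4, Ndufs1 and Ndufa4) had a p below 0.05, or 4.05% of them, while this held for 20.5% of all genes tested there. With the fold threshold of 1.5 added, 1 member was called, with 15.4% of all genes called in either direction and 7.14% in the lower one. In these edgeR fits the shares of the members were below those of all genes. In DESeq2 with all libraries the 17 called members (23%) lay above the 6.21% of its 25307 genes. That background share includes genes with low counts that edgeR's filter removed, and calls in either direction, so it is not a like comparison. DESeq2 without VHL-KO replicate 4 called 1 member (1.35%), below the 10.6% of its genes. The differences of the shares were not tested.

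**Figure D1:**
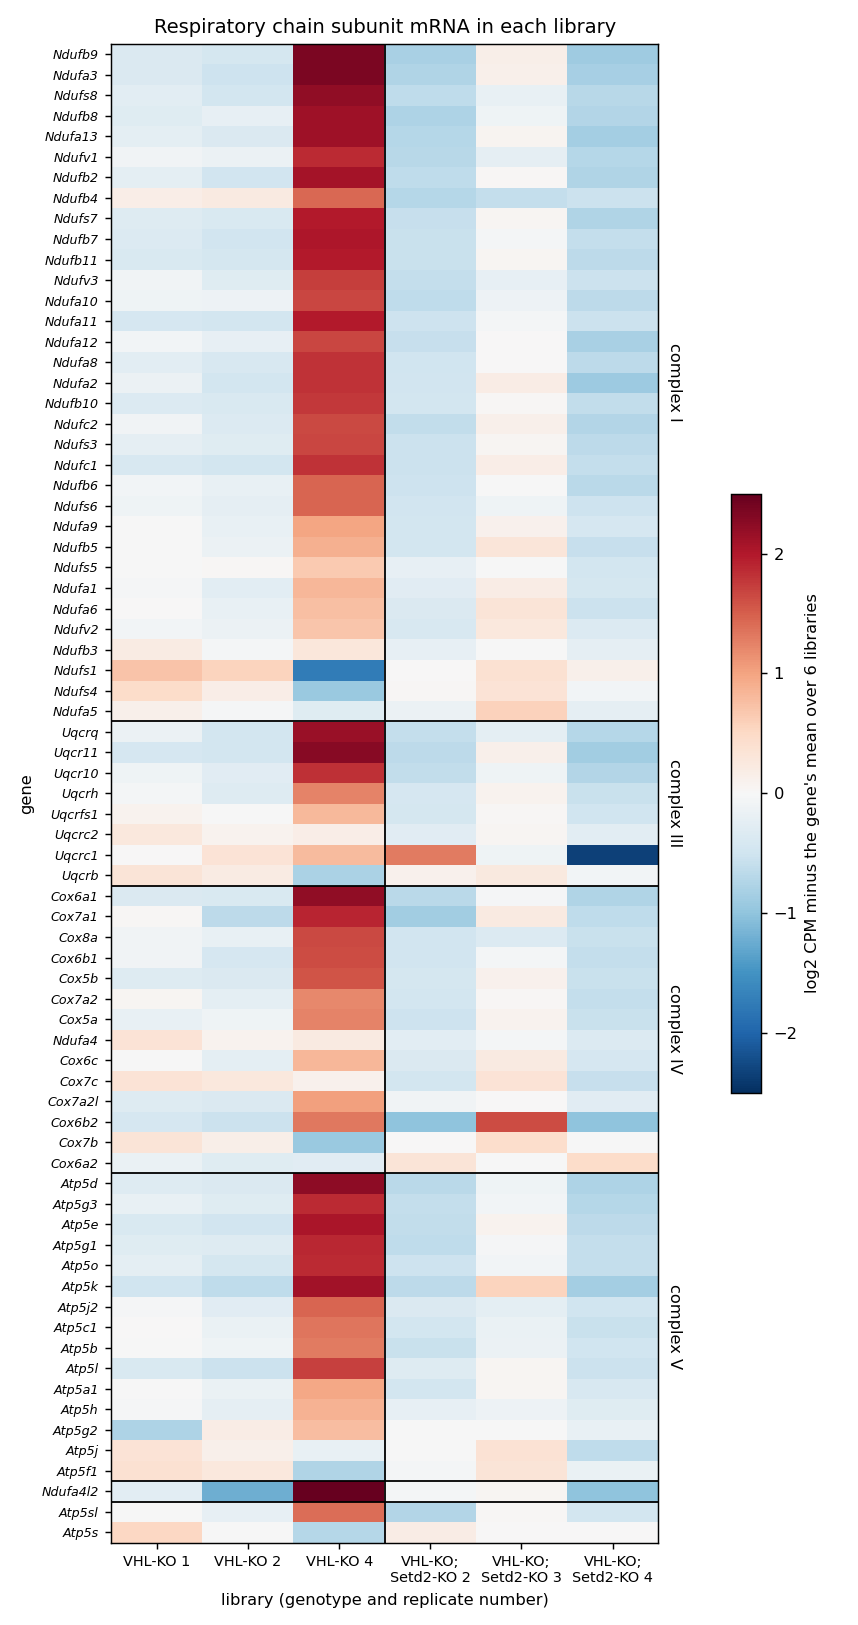
Rows are 73 of the 74 tested members, grouped by complex and ordered by fold change, and columns are the 6 libraries. Colour is the log2 CPM minus the mean of the gene over the 6 libraries; over all 74 tested members, VHL-KO replicate 4 is the highest library for 60, with Ndufs1, Ndufs4, Uqcrb, Cox7b and Atp5f1 among the exceptions.

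Complex I had 34 tested subunits, of which 32 had a log2 fold change below 0. The median was -1.11 with an SD of 0.49 among the genes, and without VHL-KO replicate 4 it was -0.12 with an SD of 0.19. Summed over the 35 subunits, the level was 3008, 2789 and 9993 CPM in the VHL-KO libraries and 2258, 3358 and 2177 CPM in the libraries with the label VHL-KO; Setd2-KO. The means were 5263 ± 4097 (SD, n = 3) and 2598 ± 660 (SD, n = 3). The 2 remaining VHL-KO libraries lay inside the range of the other group, below its replicate 3.

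Ndufb4, an accessory subunit of the membrane arm (chr16:37647170-37654453), had 10.1, 10.6 and 24.6 CPM in the VHL-KO libraries and 5.53, 6.03 and 6.21 CPM in the others. The groups did not overlap, and the 3 libraries with the label VHL-KO; Setd2-KO lay close together. The log2 fold change was -1.35 ± 0.47 (SE), which passed the unadjusted threshold but not the adjusted one (adjusted p = 0.625 by edgeR's quasi-likelihood test). Without VHL-KO replicate 4 it was -0.81 ± 0.19, with an adjusted p of 0.113 by the same test, and DESeq2 without that library gave an adjusted p of 0.0381, in a fit that called 8.6% of all genes at that threshold. Leaving out any 1 library of the second group ended the unadjusted call, with an adjusted p between 0.753 and 0.982 in edgeR, and the fold change stayed between -1.36 and -1.28. Its level was low for a complex I subunit, at 7.94 CPM per kilobase without VHL-KO replicate 4, where the median of the 35 subunits was 77.9 CPM per kilobase. The related gene Gm3244, named Ndufb4c in RefSeq, had between 9 and 19 counts in each library.

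The core subunits that carry the flavin and iron-sulphur centres did not move together in all libraries. Ndufv1 encodes the subunit that binds NADH and flavin. It had 201, 192 and 778 CPM against 132, 182 and 130.1 CPM. The groups did not overlap, and the log2 fold change of -1.40 ± 0.63 did not pass (adjusted p = 0.625), nor did that of -0.41 ± 0.20 without VHL-KO replicate 4 (adjusted p = 0.295). Ndufs1, the largest core subunit, carries iron-sulphur centres beside the flavin site. It had 264, 237 and 47.9 CPM against 162, 210.2 and 176 CPM. VHL-KO replicate 4 was here the lowest library, and the 2 other VHL-KO libraries lay above all 3 of the second group. The log2 fold change of Ndufs1 was -0.00 ± 0.62 (adjusted p = 0.999) with all libraries and -0.46 ± 0.18 without that one (adjusted p = 0.226), where it passed the unadjusted p but not the fold threshold.

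Ndufs3, which forms part of the arm that leads electrons to ubiquinone, had a log2 fold change of -1.04 ± 0.62, and of -0.08 without VHL-KO replicate 4. Ndufs7 and Ndufs8, which carry the last iron-sulphur centres before ubiquinone, had -1.28 ± 0.70 and -1.52 ± 0.74, and -0.04 and -0.13 without it. Ndufv2, the partner of Ndufv1, had 99.8, 93.6 and 169 CPM against 79.3, 125 and 82.4 CPM, and its log2 fold change was -0.34 ± 0.43, and -0.02 without VHL-KO replicate 4. None of these 4 passed the threshold in either edgeR fit, while DESeq2 with all libraries called Ndufs8 at the unadjusted p. Their adjusted p-values in edgeR lay between 0.625 and 0.796 (Ndufv2) with all libraries.

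Ndufb9, an accessory subunit of the membrane arm, had the lowest fold change of the complex. It had 121, 114 and 786 CPM against 88.0, 172 and 82.9 CPM, and the log2 fold change was -1.57 ± 0.81 (adjusted p = 0.625) and -0.04 ± 0.34 without VHL-KO replicate 4. Without that library, replicate 3 of the second group was the highest of all. Ndufa5, an accessory subunit of the matrix arm, had the highest fold change, 0.17 ± 0.40 (0.05 without VHL-KO replicate 4), with 59.2, 52.9 and 43.8 CPM against 48.8, 80.2 and 45.9 CPM. Ndufa7 did not pass the filter, with 0, 0 and 6 counts against 2, 1 and 1. Its near-identical gene Gm9711 may take reads of it, so its low count was not read as an absence of the subunit.

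Complex III had a median log2 fold change of -0.68, with 7 of 8 subunits below 0, and of -0.19 without VHL-KO replicate 4. Its summed level was 1310.4, 1165 and 3075 CPM against 977, 1285 and 904 CPM, so that without replicate 4 the groups overlapped. Uqcrc2, a core protein of the complex, was the subunit whose groups did not overlap. It had 329, 289.7 and 306 CPM against 224, 284 and 228 CPM, and the log2 fold change was -0.33 ± 0.38 (adjusted p = 0.777) and -0.34 ± 0.18 without VHL-KO replicate 4 (adjusted p = 0.347). For this gene that library did not stand apart from the other 2 of its group.

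Uqcrfs1, the Rieske iron-sulphur protein, had 248, 232 and 411 CPM against 171, 238 and 165 CPM, with a log2 fold change of -0.63 ± 0.43 (adjusted p = 0.652), and of -0.33 ± 0.21 without VHL-KO replicate 4. Uqcrq, a small subunit near the ubiquinone site, had the lowest fold change, -1.54 ± 0.73 (-0.22 ± 0.20 without VHL-KO replicate 4), with 146, 117 and 724 CPM against 106, 136 and 97.7 CPM. Uqcrb, another small subunit of that site, had the highest, 0.11 ± 0.43 (-0.17 ± 0.16 without VHL-KO replicate 4), with 164, 152 and 75.9 CPM against 142, 155 and 126 CPM. These 2 small subunits thus departed in opposite directions in VHL-KO replicate 4. Uqcrb has 4 near-identical genes, which makes its count uncertain. Uqcrc1, the other core protein, had 5.57 CPM per kilobase without VHL-KO replicate 4, where Uqcrc2 had 143. It had 131, 107 and 145 counts against 364, 129 and 25, or 7.94, 9.90 and 13.6 CPM against 19.3, 7.26 and 1.57 CPM. The 3 libraries of the second group spread widely (9.39 ± 9.08 CPM, SD, n = 3), and no difference between groups was detectable (log2 fold change -0.15 ± 0.77, adjusted p = 0.948, and 0.08 ± 0.88 without VHL-KO replicate 4).

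**Figure D2:**
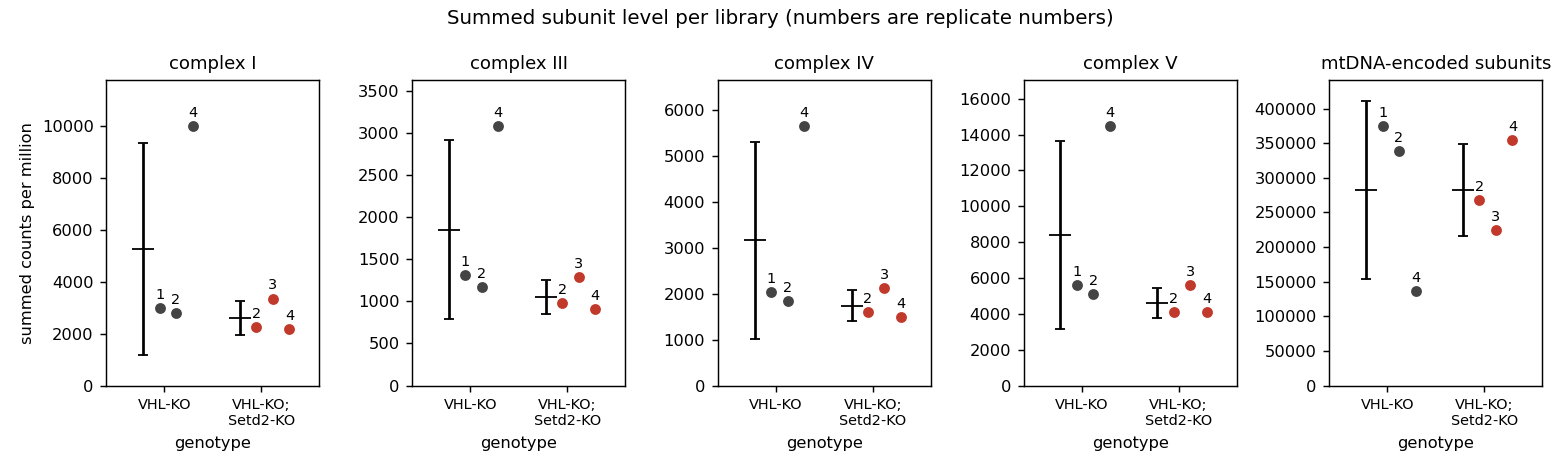
Each panel plots the summed CPM of 1 complex, or of the 13 subunits encoded in mitochondrial DNA, in the 6 libraries; points carry replicate numbers, and bars are the mean ± SD of 3 libraries. VHL-KO replicate 4 lies at 9993 CPM for complex I and 14456 CPM for complex V, above every other library, and at 136230 CPM for the subunits of mitochondrial DNA, below every other library.

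Complex IV had 14 tested subunits with a median log2 fold change of -0.61, 11 of them below 0, and of -0.08 without VHL-KO replicate 4. The summed level was 2025, 1831 and 5636 CPM against 1592, 2132 and 1499.8 CPM. Ndufa4 had 298, 251 and 277 CPM against 196, 227 and 186 CPM, with no overlap of the groups and with VHL-KO replicate 4 between the 2 others of its group. Its log2 fold change was -0.44 ± 0.38 (adjusted p = 0.710) and -0.44 ± 0.17 without that library (adjusted p = 0.235), again past the unadjusted p but not the fold threshold. Cox8a, a small membrane subunit, had 342, 319 and 1133 CPM against 262, 285 and 246 CPM, also without overlap, and the log2 fold change of -1.18 ± 0.58 did not pass (adjusted p = 0.625), nor did that of -0.33 ± 0.16 without VHL-KO replicate 4 (adjusted p = 0.303). Cox5a and Cox5b, subunits on the matrix side, had log2 fold changes of -0.77 ± 0.52 and -0.86 ± 0.61, and of -0.15 and 0.07 without VHL-KO replicate 4.

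Isoform pairs of complex IV kept a wide gap in level in every library. On the scale of CPM per kilobase without VHL-KO replicate 4, the general isoform Cox6a1 stood at 446 and its heart and muscle isoform Cox6a2 at 1.07. Cox6b1 stood at 300.0 and the testis isoform Cox6b2 at 4.04, and Cox7a2 at 160 and the muscle isoform Cox7a1 at 9.49. Cox7a2l, a related gene that helps to assemble supercomplexes, stood at 89.95. The muscle isoform Cox8b had 3, 2 and 0 counts against 7, 11 and 7, did not pass the filter and stood at 0.999, while Cox8a stood at 529.

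None of the isoforms passed edgeR's threshold, while DESeq2 with all libraries called Cox6a1 and Cox8a at the unadjusted p. Cox6a1 had 264, 261 and 1586 CPM against 213, 332 and 203 CPM, with a log2 fold change of -1.50 ± 0.77 (adjusted p = 0.625), the lowest of the complex, which became -0.08 ± 0.25 without VHL-KO replicate 4. Cox6a2 had the highest, 0.51 ± 0.52 (adjusted p = 0.750), and 0.49 ± 0.47 without that library, at under 1 CPM in every library. Cox6b2 had 1.52, 1.39 and 5.05 CPM against 1.01, 6.25 and 1.00 CPM, so that 1 library of each group was high. Cox7b, for which a further isoform is known, was lowest in VHL-KO replicate 4, with 161, 144 and 68.1 CPM against 131, 176 and 129 CPM. Cox7a2l had a log2 fold change of -0.38 ± 0.49, and of 0.22 ± 0.15 without VHL-KO replicate 4. Cox6b1, Cox7a1 and Cox7a2 had log2 fold changes of -1.04, -1.19 and -0.79, and of -0.13, -0.08 and -0.23 without that library.

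The summed level of complex V was 5598, 5131 and 14456 CPM against 4114, 5583 and 4097 CPM. VHL-KO replicate 4 lay far above the rest. The median log2 fold change of its 15 subunits was -0.94, with 14 below 0, and -0.15 without VHL-KO replicate 4. Atp5b, the catalytic beta subunit, had 2012, 1891 and 5002 CPM against 1378, 1835 and 1444 CPM. Its groups did not overlap, and the log2 fold change was -0.93 ± 0.54 (adjusted p = 0.626) and -0.33 ± 0.23 without VHL-KO replicate 4 (adjusted p = 0.445). Atp5c1, the gamma subunit of the central stalk, had 342, 305 and 859 CPM against 246, 304 and 233 CPM, also without overlap by a narrow margin, and its log2 fold change was -0.94 ± 0.52 (adjusted p = 0.625), and -0.31 ± 0.19 without VHL-KO replicate 4.

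Atp5a1, the alpha subunit, had 1541, 1387 and 3026 CPM against 1129.8, 1609.8 and 1178 CPM, with overlapping groups and a log2 fold change of -0.60 ± 0.49, and of -0.17 ± 0.24 without VHL-KO replicate 4. Atp5d, the delta subunit of the central stalk, had the lowest fold change of the complex, -1.56 ± 0.76 (adjusted p = 0.625), which became -0.15 ± 0.24 without VHL-KO replicate 4. Atp5f1, a subunit of the peripheral stalk, had the highest, 0.00 ± 0.46, which became -0.28 ± 0.20. Atp5f1 was lowest in VHL-KO replicate 4, with 324, 297 and 146 CPM against 240.2, 309 and 221 CPM. The c subunit of the rotor is made from 3 genes. Atp5g3 had the largest share of these with 409 CPM per kilobase without VHL-KO replicate 4, Atp5g1 had 11.6 and Atp5g2 had 3.89. The log2 fold changes of Atp5g1, Atp5g2 and Atp5g3 were -1.23 ± 0.66, -0.25 ± 0.55 and -1.26 ± 0.66, and -0.10, 0.16 and -0.19 without that library. Atp5g2 has 4 near-identical genes, and the transcript chosen for Atp5g1 was long (4715 bases), so their levels per kilobase are uncertain.

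**Figure D3:**
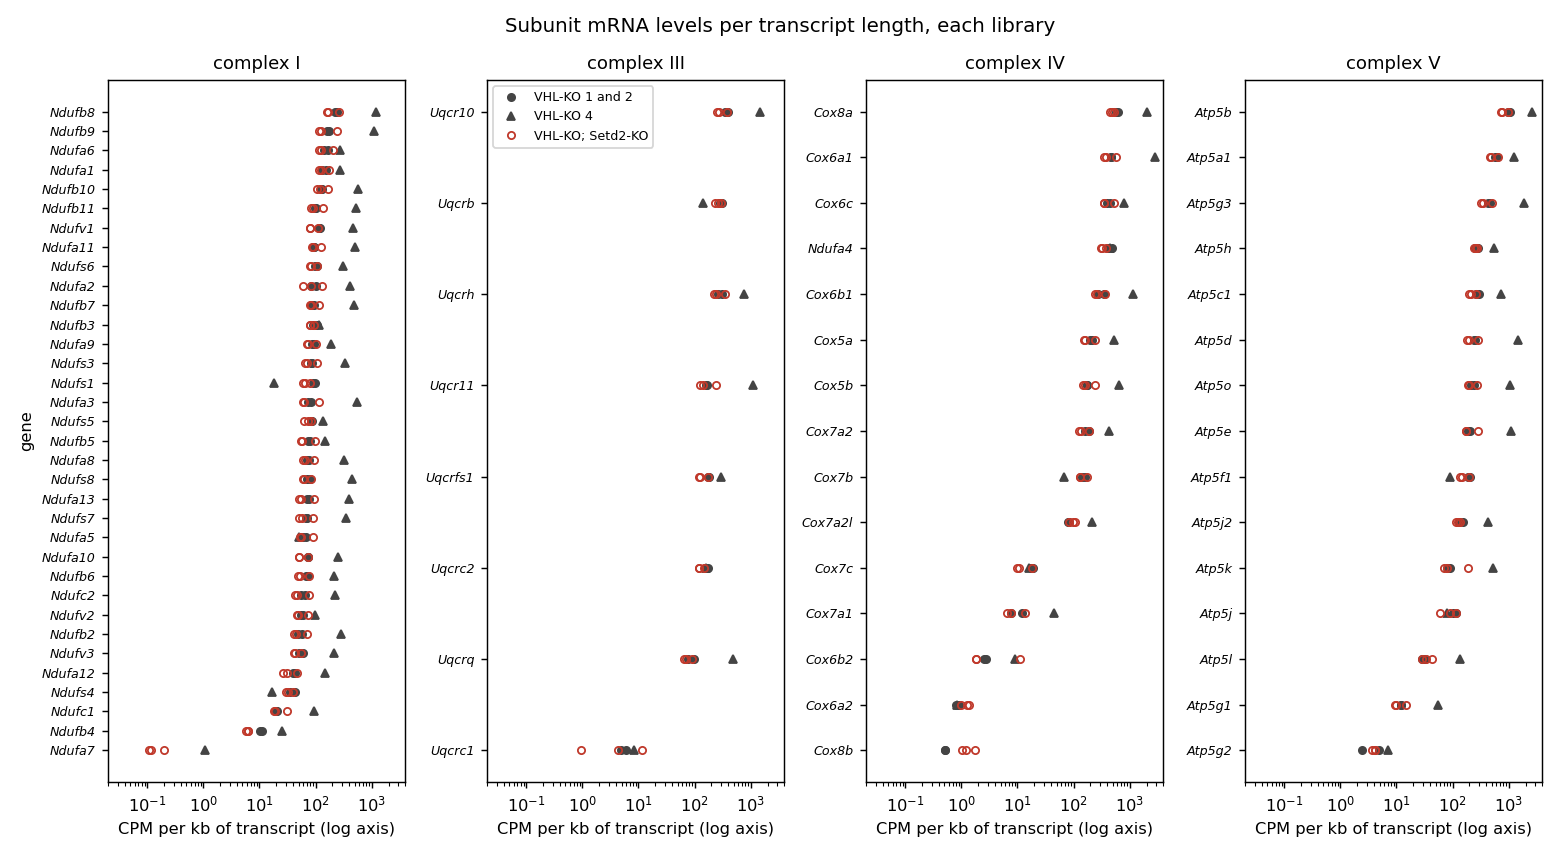
Each panel lists subunits of 1 complex (all but 1 member) by CPM per kilobase of transcript on a log axis, with 1 symbol per library (black circles VHL-KO replicates 1 and 2, black triangles VHL-KO replicate 4, red circles VHL-KO; Setd2-KO; values of 0 are not drawn). Without VHL-KO replicate 4, the medians are 77.9, 162, 160 and 205 for complexes I, III, IV and V, and Ndufb4, Ndufa7, Uqcrc1, Atp5g2 and the muscle and testis isoforms of complex IV lie at the low end of their panels.

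Ndufa4l2, a target of hypoxia-inducible factors that lowers complex I activity, had 4.30, 2.22 and 29.7 CPM against 5.05, 5.35 and 2.57 CPM. VHL-KO replicate 4 was 9.12-fold above the mean of the 2 other VHL-KO libraries. The log2 fold change was -1.48 ± 0.91 (adjusted p = 0.629) and changed sign to 0.39 ± 0.47 (adjusted p = 0.672) without that library. Atp5s and Atp5sl, kept apart, had log2 fold changes of 0.06 ± 0.44 and -0.94 ± 0.53, and of -0.21 and -0.26 without VHL-KO replicate 4.

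Across all tested members, the groups did not overlap for 8 genes that were lower in the libraries with the label VHL-KO; Setd2-KO and for 1 that was higher (Cox6a2). The 8 were Atp5b, Atp5c1, Cox8a, Ndufa10, Ndufa4, Ndufb4, Ndufv1 and Uqcrc2, or 10.8% of the members, and 11% of all tested genes did not overlap in that direction. In the higher direction the background was 9.62%. Without VHL-KO replicate 4, 9 members were lower without overlap (12.2%, background 21.5%), the same 8 and Ndufs1, and 2 were higher (background 20.4%), Cox6a2 and Cox7a2l. The shares in the lower direction were thus near the background with that library and below it without the library.

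**Figure D4:**
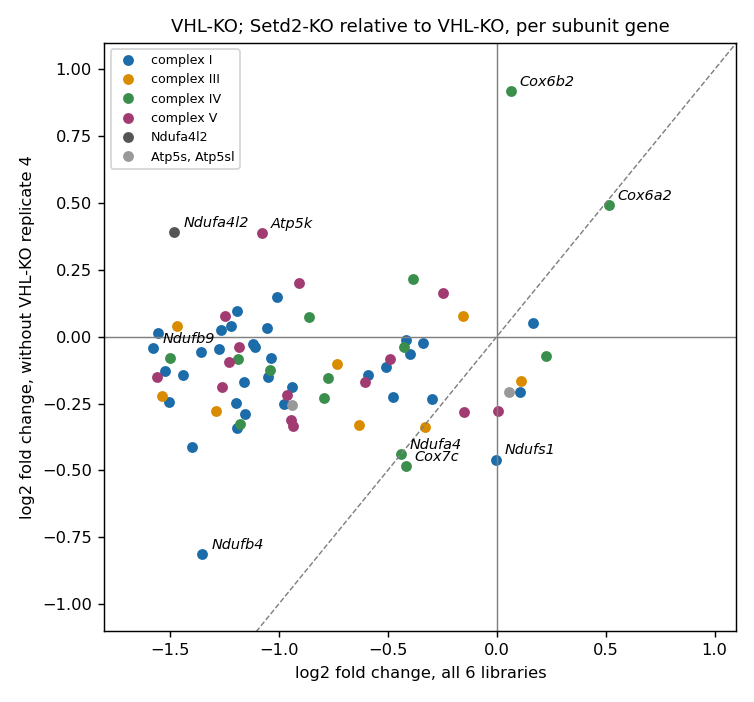
Each point is 1 of the 74 tested members, with the log2 fold change over all 6 libraries on the x axis and that without VHL-KO replicate 4 on the y axis; the dashed line marks equal values. Points of complex I spread from -1.57 to 0.17 on the x axis and from -0.81 to 0.15 on the y axis, and Ndufb4 is the lowest point on the y axis.

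VHL-KO replicate 4 departed from its group by gene in a graded way. Relative to the mean of VHL-KO replicates 1 and 2, it was at least 2-fold higher for 51 of the 74 tested members, higher by less than 2-fold for 12, and lower for 11. The median over the members was 3.43-fold higher, against 0.988-fold for all tested genes. By complex it was 3.82-fold for complex I, 2.14-fold for complex III, 2.59-fold for complex IV and 3.05-fold for complex V. Among the members with the largest departures were Ndufa3 (6.91-fold), Ndufb9 (6.69-fold), Uqcr11 (6.54-fold) and Atp5k (6.30-fold), and at the other end were Ndufs1 (0.191-fold), Ndufs4 (0.424-fold), Cox7b (0.447-fold), Atp5f1 (0.471-fold) and Uqcrb (0.481-fold).

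The departure moved with the base composition of the transcript. Across the 74 members, the log2 ratio of VHL-KO replicate 4 to the 2 others had a Spearman's rho of 0.60 with GC content and of -0.23 with length, as a description across genes that share the same libraries. Over 13108 tested genes with a transcript the values were 0.77 and -0.39. The median GC content was 53.7% for the members at least 2-fold higher in that library, 48.6% for those higher by less and 45.1% for those lower. Over all tested genes, the median log2 ratio ran from -2.67 in the 1311 genes with the least GC to 1.66 in the 1311 with the most. Within their bin of 10 by GC content, 65 of the 74 members lay above the median of all genes and 58 (78.4%) above its upper quartile, where 25% of genes lie by construction. The median excess was 1.14 on the log2 scale. The bins were not matched on length. The members' transcripts were shorter, with a median of 786 bases against 2950 bases for all tested genes with a transcript. With an offset for GC content and length in the edgeR fit, the median log2 fold change of the members between groups was -0.31, against 0.01 for all genes, and 2 members were called at an unadjusted p (Ndufb4, -0.75, and Ndufa4, -0.71) with 15.1% of all genes called.

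**Figure D5:**
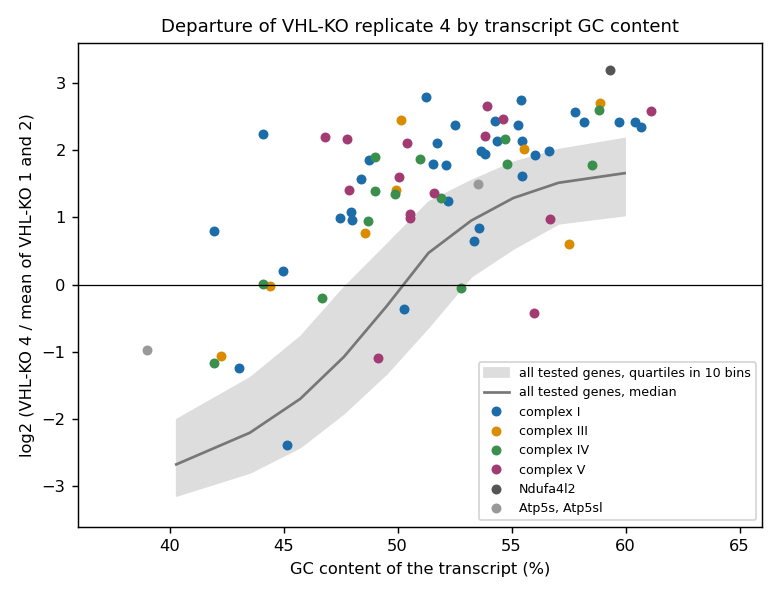
Points are the 74 tested members, with the GC content of the transcript on the x axis and the log2 ratio of VHL-KO replicate 4 to the mean of VHL-KO replicates 1 and 2 on the y axis; the line and grey band are the median and quartiles of all tested genes in 10 bins of GC content. The line rises from -2.67 to 1.66, and 65 of the 74 members lie above the median of their bin, which is not matched on transcript length.

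The same library also differed in the segments of the tubule that its markers represent. Summed markers of the collecting duct were 435 CPM there, 7.56-fold above the mean of VHL-KO replicates 1 and 2, with Aqp2 at 258 CPM against 2.73 and 9.07 CPM. The 4 markers of the Cre-expressing tubule were 3.53-fold higher, of which Cdh16 (4.31-fold) made up 2257 of 2435 CPM, those of the thick ascending limb 3.01-fold and those of the distal convoluted tubule 2.89-fold, all as sums. Single markers went both ways, with 5 of 6 collecting duct markers, 3 of 4 of the Cre-expressing tubule and 2 of 4 of each of the other segments higher. Umod (4.07-fold) carried the thick limb sum while Slc12a1 was at 0.368-fold, and Slc12a3 (3.45-fold) carried the distal sum while Calb1 was at 0.432-fold. Markers of the proximal tubule were 1.64-fold higher as a sum, and Slc34a1 made up 14206 of the 25423 CPM, but 4 of the 10 markers were lower (Lrp2, Cubn, Slc5a12 and Slc27a2), with Lrp2 at 940 CPM against 3384 and 3351 CPM. Markers of macrophages were 3.73-fold higher as a sum, of which Cd74 made up 457 of 645 CPM, with 4 of 6 higher. Markers of fibroblasts and mesangium were 4.44-fold higher, at 426 CPM against 104 and 88.2 CPM, with 6 of 7 higher, and those of endothelium were at 0.650-fold, with 4 of 5 lower. The part of base composition and of cell types in the members' levels was not tested.

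A second library also moved with the members. Replicate 3 of the libraries with the label VHL-KO; Setd2-KO lay above replicates 2 and 4 for 69 of the 74 tested members (93.2%), while 41.5% of all tested genes did so, and the median member was 1.47-fold above the mean of those 2. In the same library, the summed markers of the thick ascending limb were 2.64-fold, of the collecting duct 2.86-fold and of the distal convoluted tubule 2.41-fold above that mean, with every marker of these 3 lists higher. Those of the Cre-expressing tubule were 2.00-fold (4 of 4 higher) and those of the proximal tubule 1.32-fold above it (9 of 10 higher). Markers of podocytes were at 0.432-fold and those of endothelium at 0.343-fold, with every marker of both lists lower. Between the groups, podocyte markers summed to 1437, 1928 and 2089 CPM against 4836, 1971 and 4296 CPM, and proximal tubule markers to 15780, 15289 and 25423 CPM against 6541, 9495 and 7900.4 CPM. The proximal tubule sums did not overlap, and each library of the second group was lower. Of the single markers, the groups did not overlap for Slc34a1, Slc22a6, Slc27a2, Aqp1 and Hnf4a. They overlapped for Lrp2, Cubn, Slc5a2, Slc22a8 and Slc5a12, and Slc5a12 had a log2 fold change of 0.50. Endothelium markers summed to 1385, 1620 and 977 CPM against 3917, 1217 and 3177 CPM. T cell markers were at most 7.11 CPM as a sum, with Trac at 0 counts in every library. What these markers contribute to the members' values was not tested.

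The 13 subunits encoded in mitochondrial DNA did not follow the nuclear-encoded ones in VHL-KO replicate 4 or in replicate 3 of the second group. They summed to 374215, 338208 and 136230 CPM against 267878, 224113 and 354810 CPM, with a median log2 fold change of 0.04, and -0.30 without VHL-KO replicate 4. Without that library, 12 of the 13 were below 0, as were 56 of the 74 tested members. COX1, the catalytic subunit of complex IV, had 158171, 138365 and 55419 CPM against 110746, 99599 and 147664 CPM. ND1 of complex I had 44061, 42181 and 28877 CPM against 33103, 23073 and 40802 CPM, and CYTB of complex III had 74567, 66530.4 and 17253 CPM against 54427, 44455 and 73168 CPM. VHL-KO replicate 4 was the lowest library for 9 of the 13, as it was for 41.6% of all tested genes, and replicate 3 of the second group lay below replicates 2 and 4 in sum. In both of these libraries the nuclear-encoded sums were thus high where the mitochondrial sum was low. None of the 13 was called in either edgeR fit or by DESeq2 with or without that library, and their lowest adjusted p in edgeR was 0.785 with all libraries.

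Subunits that the symbol rule leaves out were described beside the members, in a list that also holds cytochrome c (Cycs) and the ATP synthase inhibitor Atpif1. All 10 tested genes of this list had a log2 fold change below 0, with a median of -0.97, and of -0.31 without VHL-KO replicate 4. With all libraries edgeR called none of these 10. DESeq2 called 4 of them at the unadjusted p (Sdhb, Sdhc, Cyc1 and Cox4i1), where it called 6.21% of its 25307 unfiltered genes. Of complex II, which passes electrons from succinate, Sdhb had 188, 177 and 945 CPM against 128, 187 and 125 CPM, with a log2 fold change of -1.57 ± 0.72 (adjusted p = 0.625), and of -0.32 without VHL-KO replicate 4. Sdha, its flavoprotein, had 599.8, 605 and 327 CPM against 404, 650.3 and 434 CPM, with -0.04 ± 0.46, and -0.28 without that library, and was lowest in VHL-KO replicate 4. Cycs, cytochrome c, was called at the unadjusted threshold in the fit without VHL-KO replicate 4, at -0.96 (adjusted p = 0.110 in edgeR and 0.0124 in DESeq2 without that library; -0.59 with all libraries), with 45.1, 40.5 and 14.0 CPM against 25.7, 16.3 and 24.2 CPM. Cox4i1 had 461, 393 and 2609 CPM against 351, 566 and 331 CPM. Its isoform Cox4i2, which hypoxia-inducible factors induce, had 5, 1 and 77 counts against 5, 15 and 1. Cox4i2 did not pass edgeR's filter, and it was high in the same library as Ndufa4l2. DESeq2 with all libraries tested Cox4i2 and called it lower at the unadjusted p (log2 fold change -2.66). Without VHL-KO replicate 4 the DESeq2 value was 0.93 and was not called. A separate list held 7 targets of hypoxia-inducible factors, Ndufa4l2 and Cox4i2 among them. Of the others, Lonp1 (2.40-fold) and Higd1a (1.82-fold) were also higher in VHL-KO replicate 4 than in the mean of VHL-KO replicates 1 and 2. Pdk1 (0.387-fold), Bnip3 (0.532-fold) and Bnip3l (0.245-fold) were lower.

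Of 46 tested assembly factors, 38 had a log2 fold change below 0, with a median of -0.48 (-0.21 without VHL-KO replicate 4), and 2 were called lower. These were Ecsit, of the complex I assembly module (-1.48 ± 0.59, adjusted p = 0.625), with 47.5, 48.1 and 173 CPM against 28.4, 38.2 and 29.9 CPM, and Sdhaf1, of complex II (-1.50 ± 0.61), with 20.5, 16.7 and 73.9 CPM against 13.3, 14.0 and 12.04 CPM. Both had an adjusted p of 0.625. The 2 called were 4.35% of the list, beside 4.68% of all genes called lower. Without VHL-KO replicate 4, Ecsit had -0.58 and Sdhaf1 -0.51, which is 1.49-fold and 1.42-fold lower, so that neither was called there. Without VHL-KO replicate 4, 14 of the 46 had a p below 0.05 (30.4%), where 20.5% of all genes did, and 2 were called (4.35%), where 7.14% of all genes were called lower. These were Ndufaf1 (-0.65, adjusted p = 0.104; -0.41 with all libraries) and Acad9 (-0.92, adjusted p = 0.0775; -0.70 with all libraries), both factors of complex I assembly. In DESeq2 without that library, which called 8.6% of all genes at an adjusted p, Ndufaf1 had an adjusted p of 0.0298 and Acad9 of 0.00053. Of 17 tested regulators of mitochondrial biogenesis, edgeR called none in either fit and DESeq2 with all libraries called Esrra at the unadjusted p. Their median log2 fold change was 0.05, and -0.22 without VHL-KO replicate 4. Esrra, a nuclear receptor that activates these genes, had 73.7, 76.9 and 307 CPM against 53.9, 87.8 and 51.7 CPM, with VHL-KO replicate 4 the highest, while Nrf1 had between 15.9 and 17.1 CPM in every library. Gabpa had 64.2, 54.3 and 6.27 CPM against 52.2, 45.4 and 55.0 CPM, and Tfam, the transcription factor of mitochondrial DNA, had 41.3, 38.2 and 7.58 CPM against 27.9, 37.4 and 30.9 CPM, both lowest in VHL-KO replicate 4.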

How the data were processed

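The authors extracted total RNA from PTECs, built directional paired-end libraries and deposited raw read counts per gene symbol, which were used without change. Per the labels, reads were processed with HISAT2 2.0.4 and the build was GRCm38. The counting program and its use of strand are not given in the sources used here. All 6 count columns were assigned by their sample descriptions, and 0 were left unused.

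Members and lists were chosen with earlier results of these data known. Low counts were removed with filterByExpr, and edgeR 4.0.16 (R 4.3.3) gave TMM factors (0.831 to 1.16) and quasi-likelihood tests, with a single term for genotype and Benjamini-Hochberg adjustment over the 14611 genes tested. Adjusted p-values are edgeR's unless DESeq2 1.42.0 is named. An SE is the log2 fold change divided by the root of edgeR's F value. The study's own test was DESeq2, which was run here as an alternative. The other alternatives were RLE factors, library totals, library sizes without genes of mitochondrial DNA, limma-voom (limma 3.58.1), no filter, at least 10 counts in every library, a fold change of at least 2, a replicate block and each library left out. Crossed pairs, an offset for GC content and length, and DESeq2 without VHL-KO replicate 4 were added after seeing the data. The script was tested on simulated data, in which 200 genes differed 4-fold.

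Genes named are the core subunits, the isoforms, the members with the highest and lowest fold change in each complex, every called member and every member removed by the filter, except that 1 member is counted in the totals but not reported here by name; any further gene was picked with its values in view. A library's floor was set at 3 counts (0.168 to 0.269 CPM). The floor reflects counting error alone, because reads that carry no molecular identifier need not stem from separate molecules. Lengths, GC content and positions are of 1 GENCODE transcript a gene on GRCm38, and a near-identical gene matched at least 50% of it at 90% identity by BLAST 2.17.0.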

Additional observations from a re-analysis of the deposited data

How the results depend on the processing

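The count of members called at an unadjusted p was 1 and became 17 with DESeq2, 8 with no filter on low counts, 2 with the offset for GC content and length, and 0 with the replicate block and with crossed pairs. In DESeq2 and with no filter these were 23% and 10.8% of the members, beside 6.21% and 6.19% of all genes. Those shares of all genes are over 25307 and 25375 genes, including genes with low counts that the main fit left out. The share of all genes called was 15.1%, 1.01% and 1.56% with the offset, the block and the crossed pairs. Leaving out single libraries gave counts from 0 to 21: 11 without VHL-KO replicate 1 (14.9%, beside 7.8% of all genes), 21 without VHL-KO replicate 2 (28.4%, beside 9.71%), and 0 without any single library of the second group, where 2.56%, 4.57% and 3.02% of all genes were called without replicates 2, 3 and 4. The count at an adjusted p was 0 under every alternative other than DESeq2 without VHL-KO replicate 4, which gave 1 (Ndufb4), although DESeq2 with all libraries gave 13 members no adjusted p, and over the alternatives the lowest adjusted p of a member ranged from 0.0381 to 0.982. The count of related genes called was 2 of 86 tested (2.33%), beside 7.33% of all genes. It became 9 with DESeq2, 6 with no filter and 13 of 73 with the GC and length offset. It was 0 with library totals (beside 7.67% of all genes), with limma-voom (6.22%), with the replicate block and with crossed pairs. With single libraries left out it was from 0 to 9. These counts are to be read against the shares of all genes in the same fits. The cause of these changes was not tested.

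The median log2 fold change of the members (-0.97) lay between -1.24 and -0.13 with each library left out, and was -0.13 with DESeq2 without VHL-KO replicate 4. For complex I (-1.11) the range was -1.44 to -0.12, with -0.13 in that DESeq2 fit and -0.33 with the GC and length offset. For complex IV (-0.61) it was -0.99 to -0.081, with -0.090 and -0.17. For complex V (-0.94) it was -1.24 to -0.15, with -0.16 and -0.37. The value without VHL-KO replicate 4 was the end nearest 0 of each of these ranges. For complex III (-0.68) the median was -0.19 without that library and -0.22 with the GC and length offset. Library totals without TMM factors moved the median of all tested genes from 0.01 to 0.29 (limma-voom to 0.13), and the median of the members was then -0.63.

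Without VHL-KO replicate 4, 20 of the 74 tested members had the other sign. The values of the members named by rule follow, where none of those with the other sign passed the threshold. With each library left out, Ndufa4l2 lay between -1.95 and 0.39, Ndufs1 between -0.46 and 0.36, Uqcrc1 between -1.23 and 0.37, Cox5b between -1.15 and 0.074, Atp5g2 between -0.56 and 0.16, Cox6b2 between -1.37 and 0.92, Cox7a2l between -0.60 and 0.22, Cox7b between -0.072 and 0.46, Ndufa5 between -0.13 and 0.32, Uqcrb between -0.17 and 0.32, and Atp5f1 between -0.28 and 0.22. In DESeq2 without VHL-KO replicate 4, the values were 0.38 for Ndufa4l2, 0.065 for Uqcrc1, 0.066 for Cox5b, 0.16 for Atp5g2, 0.21 for Cox7a2l, -0.081 for Cox7b, -0.17 for Uqcrb and -0.29 for Atp5f1. With library totals they were 0.24 for Ndufs1, 0.18 for Uqcrc1 and 0.062 for Atp5g2. With the GC and length offset they were 0.30 for Uqcrc1, 0.52 for Atp5g2, -0.10 for Cox7b and -0.10 for Uqcrb. Ndufs1 was 0.00044 with library sizes that leave out genes of mitochondrial DNA, 0.34 with limma-voom, 0.015 with no filter and 0.019 with at least 10 counts in every library. Cox6b2 was -0.22 with limma-voom. Atp5f1 was -0.037 with RLE factors and -0.028 with DESeq2.

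Replicate numbers 2 and 4 occur in both groups, but nothing in the labels pairs the mice. For that reason the numbers were not taken as pairs. The deviations of same-numbered libraries from their group means had correlations of 0.16 (number 2) and -0.32 (number 4) over all tested genes. With 3 libraries a group, of which 1 stands apart, these values cannot show whether libraries are paired. With the replicate block the fold changes were 0.66 for Ndufs1, -1.42 for Cox6b2 and -0.025 for Ndufa5, and with crossed pairs they were 0.66, -1.43 and -0.024. The block moved the count of called genes from 1071 to 147.

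With 3 libraries a group, of which 1 stands apart, differences within the spread of the libraries were not detectable. Members with under 5 CPM, such as Ndufa7, Cox8b, Cox6a2 and Atp5g2, rest on few counts.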
